A study of Mus musculus with 38 samples.

Results

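The subject here is the set of 7 subunits of respiratory complex I that mouse mitochondrial DNA encodes, mt-Nd1, mt-Nd2, mt-Nd3, mt-Nd4, mt-Nd4l, mt-Nd5 and mt-Nd6, followed by ribosome footprints in cultured cortical neurons. The members are all 7 protein genes of complex I on the mitochondrial chromosome, chosen by name among 22401 genes with a coding sequence (CDS) count. No threshold on a measured value set the choice, but earlier results of these data were known when it was made. All 7 passed the low-count filter in all 5 model fits. PL-Ribo-seq gave 38 libraries in 14 groups. In this method the biotin ligase TurboID labels proteins around it in living cells, the nuclease-trimmed single ribosomes (monosomes) are isolated, a small part is kept as input, and streptavidin pulls down the biotinylated monosomes from the rest.

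The mouse neurons came from primary cortical cultures of CD-1 embryos and carried 1 of 2 baits from a doxycycline-inducible lentivirus, so that expression could vary between cells. TurboID-PSD95 bears elements of the postsynaptic protein PSD95 that take it to dendrites, and Pan-TurboID has no localization signal. Every culture received cycloheximide for 2 min and then biotin, for 30 min by the labels, while the study's methods give a shorter time for DHPG. The KCl experiment held 24 libraries in 8 groups of 3, input and pulldown for each bait, at rest and after depolarization with 55 mM KCl for 1 h, which followed 2 h of tetrodotoxin and DL-AP5. The DHPG experiment held 6 TurboID-PSD95 libraries, 3 of each fraction, from neurons given 100 µM DHPG, which activates metabotropic glutamate receptors of group I, for 10 min, also after tetrodotoxin and DL-AP5. The knockdown experiment held 8 libraries in 4 groups of 2, input and pulldown at rest and after KCl, from neurons treated with 20 nM siRNA against the translation factor eIF4G2 for 72 h. The lentivirus field of the DHPG and knockdown labels names PSD95-TurboID, while their descriptions put the inputs of DHPG, and every library of the knockdown, in the cytosol. A sample combined several dishes, and the study's methods call the replicates of PL-Ribo-seq biological. They do not say so of the knockdown groups of 2, where p-values measure the spread between these samples, which may be technical. The chi-square per degree of freedom between 2 libraries of a group was 1.48 to 1.90 in DHPG inputs, 2.83 to 8.87 in DHPG pulldowns, 2.81 to 4.65 in knockdown groups and 8.61 to 47.5 in the KCl experiment, so that the same caution holds for DHPG.

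Complex I is the NADH:ubiquinone oxidoreductase at the entry of the respiratory chain, where electron transfer from NADH to ubiquinone drives protons across the inner mitochondrial membrane. The mitochondrially encoded subunits form the core of its membrane arm. mt-Nd2, mt-Nd4 and mt-Nd5 resemble antiporters and take part in proton pumping, mt-Nd1 and mt-Nd3 lie near the site of ubiquinone binding and its link to the pump, and mt-Nd4l and mt-Nd6 lie between them. These messages are made and translated inside the mitochondrion, by ribosomes of its own that cycloheximide does not stop, while all other subunits are made by cytosolic ribosomes and imported. Neurons depend strongly on respiration, and mitochondria reside in dendrites and axons as well as in cell bodies.

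The coding sequences lie on chrM of GRCm38 (mm10), a circle of 16299 bases, and their first 30 bases are shown because the members differ in start codon, length and overlap with each other, which all bear on how footprints were counted. The start codon is in capitals, and mt-Nd6 is the only member read from the minus strand.
mt-Nd1 (chrM:2751-3707, 957 bases): GTGttctttattaatatcctaacactcctc
mt-Nd2 (chrM:3914-4951, 1038 bases): ATAaatcctatcacccttgccatcatctac
mt-Nd3 (chrM:9459-9806, 348 bases): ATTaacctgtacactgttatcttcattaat
mt-Nd4l (chrM:9877-10173, 297 bases): ATGccatctaccttcttcaacctcaccata
mt-Nd4 (chrM:10167-11544, 1378 bases): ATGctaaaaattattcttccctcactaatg
mt-Nd5 (chrM:11742-13565, 1824 bases): ATCaatattttcacaacctcaatcttatta
mt-Nd6 (chrM:13552-14070, 519 bases): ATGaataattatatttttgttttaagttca
The start codons of mt-Nd1, mt-Nd2, mt-Nd3 and mt-Nd5 were not ATG, as the mitochondrial code allows. The annotated mt-Nd4 ends 1 base past its last whole codon, and in mitochondria a poly(A) tail can complete such a stop codon. The end of mt-Nd4l and the start of mt-Nd4 share 7 bases, chrM:10167-10173, and the ends of mt-Nd5 and mt-Nd6 share 14 bases on opposite strands, chrM:13552-13565. Both overlaps are in capitals in the plus strand of these 30-base windows.
mt-Nd4l and mt-Nd4 (chrM:10156-10185): aacctactacaATGCTAAaaattattcttc
mt-Nd5 and mt-Nd6 (chrM:13544-13573): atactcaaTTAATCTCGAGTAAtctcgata
A footprint whose 5′ end fell in a shared stretch could be counted for both genes. Whether counting used strand is not stated, and without strand the footprints of mt-Nd6 and fragments of plus-strand transcripts from the same place cannot be told apart. Nuclear copies of mitochondrial DNA share sequence with some members. Of 28-base windows of the CDS, 9.24% in mt-Nd5, 3.36% in mt-Nd2, 0.296% in mt-Nd4 and 0.203% in mt-Nd6 matched exactly in the 21 nuclear sequences searched. The search found none for mt-Nd1, mt-Nd3 or mt-Nd4l. Whether the sequences searched equal those the reads were aligned to was not checked, so nuclear copies of any member may have been missed. How reads with several matches were treated is not stated.

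Libraries held 5906281 to 35643247 counts in all and 2048604 to 14646402 CDS counts of the chosen transcripts. Levels are given as counts per 1000000 of these CDS counts (CPM). The weakest count of any member was 41, for mt-Nd4l, and the highest was 17357, for mt-Nd5. Neuronal markers summed to between 5593 and 12538 CPM, astrocyte markers to between 242 and 1557, oligodendrocyte markers to between 22.7 and 609, microglial markers to between 12.4 and 109 and endothelial markers to at most 5.46. No 2 libraries of a group agreed within counting noise.

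The footprints of the 7 genes together ranged from 372 CPM, in input 1 of resting TurboID-PSD95, to 6701 CPM, in pulldown 2 of depolarized knockdown neurons. Among inputs the mean was 601 ± 234 CPM (SD, n = 3) for resting TurboID-PSD95, 666 ± 41.8 (n = 2) for resting knockdown, 783 ± 280 (n = 3) for depolarized TurboID-PSD95 and 804 ± 237 (n = 3) for resting Pan-TurboID. Above these inputs stood depolarized knockdown at 1755 ± 17.3 (n = 2), depolarized Pan-TurboID at 1838 ± 977 (n = 3) and DHPG at 1984 ± 75.8 (n = 3). Among pulldowns the mean was 1291 ± 324 for resting Pan-TurboID, 1343 ± 420 for resting TurboID-PSD95, 1348 ± 216 for depolarized TurboID-PSD95 and 2700 ± 1038 for depolarized Pan-TurboID (SD, n = 3 each). The highest pulldowns were resting knockdown at 2965 ± 61.3 (n = 2), DHPG at 4203 ± 1001 (n = 3) and depolarized knockdown at 5911 ± 1118 (n = 2). In this order of all 14 groups, neighbours overlapped in the range of their libraries except at 3 steps, between depolarized TurboID-PSD95 pulldown and depolarized knockdown input, between resting knockdown and DHPG pulldowns, and between DHPG and depolarized knockdown pulldowns.

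**Figure D1:**
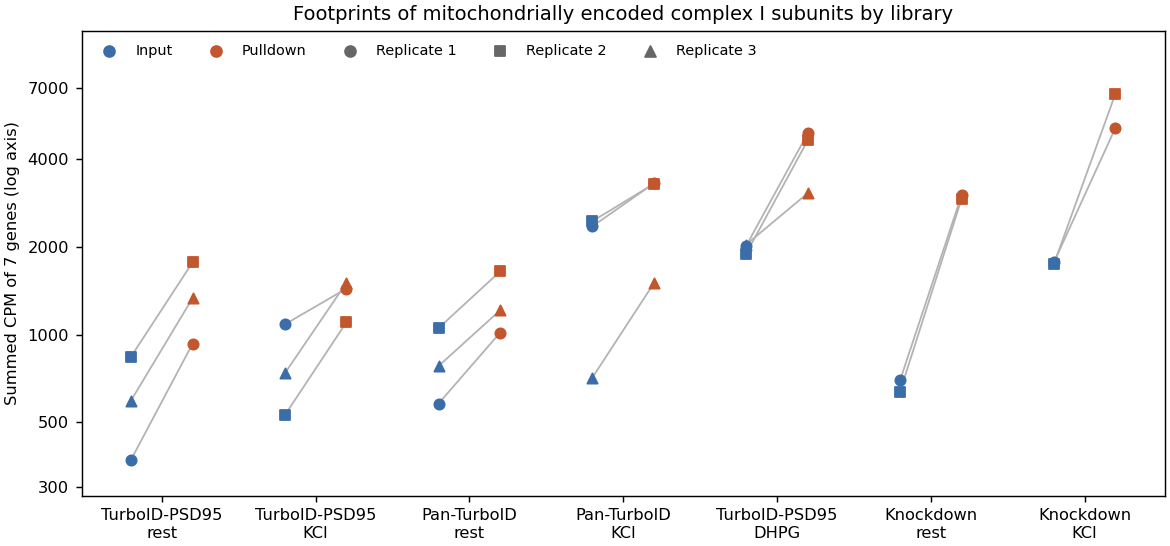
Summed CPM of the 7 genes on a log axis, 1 point per library, with input in blue, pulldown in orange and a grey line joining the input and pulldown of a replicate number. Every line rises from input to pulldown, and the points run from 372 to 6701 CPM.

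The 7 genes made up 26.9% to 32.6% of the CDS counts of all 13 proteins that mitochondrial DNA encodes, while those 13 took between 0.13% and 2.06% of all CDS counts. Within the 7, mt-Nd5 took the most counts, from 25.1% of them in resting TurboID-PSD95 inputs to 35.6% in depolarized TurboID-PSD95 pulldowns, as group means. mt-Nd3, a short subunit, took between 1.79% in resting knockdown pulldowns and 5.66% in depolarized knockdown inputs.

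Levels of different genes are compared per kilobase of CDS. mt-Nd1 had the highest mean density in 10 of 14 groups and mt-Nd6, the only minus-strand member, the lowest in 11. In resting TurboID-PSD95 inputs the densities ran from 145 ± 56.3 CPM per kb (SD, n = 3) for mt-Nd1 through mt-Nd4l, mt-Nd2, mt-Nd4, mt-Nd5 and mt-Nd3 down to 63.0 ± 19.9 for mt-Nd6, and each neighbour in this order overlapped the next. In DHPG inputs, whose replicates lay close together, mt-Nd1 stood at 359 ± 2.10 and mt-Nd5 at 355 ± 17.5 CPM per kb (n = 3). mt-Nd6 stood at 172 ± 29.7 CPM per kb in those libraries and did not overlap mt-Nd3, the next above it, at 265 ± 29.9. In DHPG pulldowns mt-Nd5, mt-Nd4, mt-Nd1 and mt-Nd2, between 681 ± 186 and 798 ± 195 CPM per kb, formed an upper set that did not overlap mt-Nd4l, mt-Nd3 and mt-Nd6, between 276 ± 60.3 and 320 ± 40.7. The same 4 genes were above the same 3 in both knockdown pulldowns and in depolarized TurboID-PSD95 pulldowns, again without overlap at that step.

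**Figure D2:**
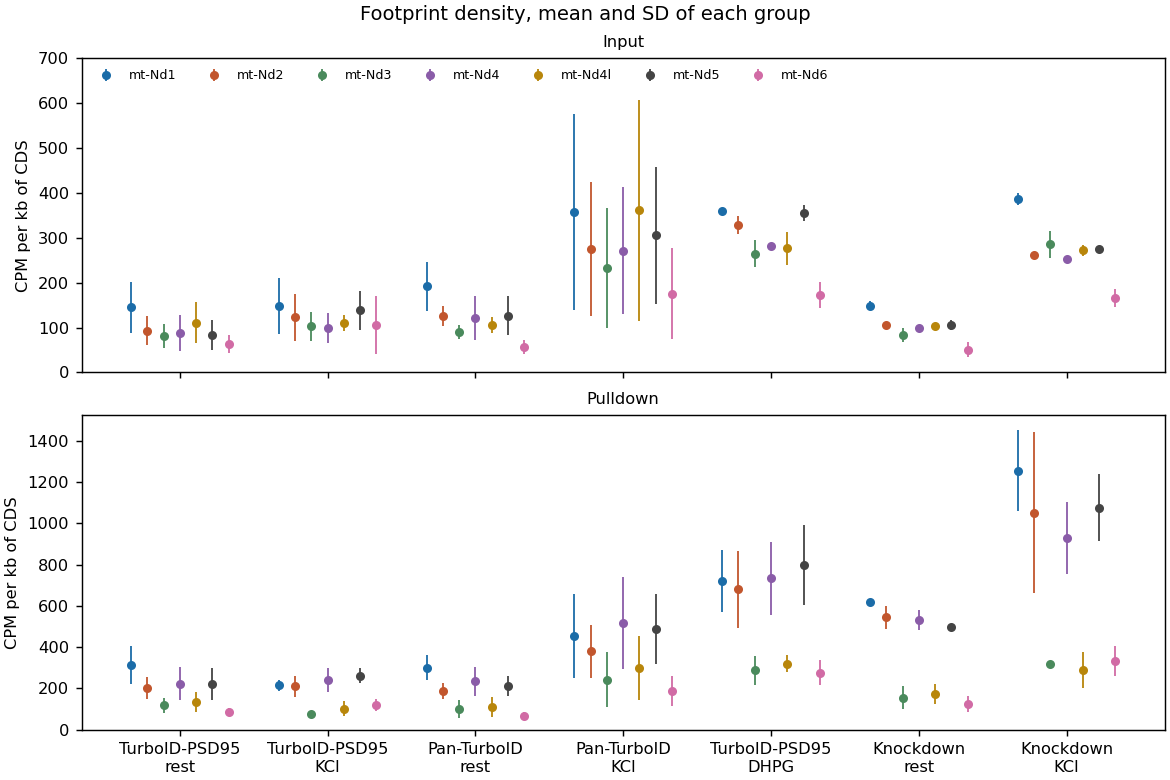
Footprint density of each gene in CPM per kilobase of CDS, inputs above and pulldowns below, as the mean and SD of 2 or 3 libraries on linear axes. mt-Nd1, mt-Nd2, mt-Nd4 and mt-Nd5 separate from mt-Nd3, mt-Nd4l and mt-Nd6 in pulldowns more than in inputs, as in DHPG pulldowns, where the 3 lower genes lie between 276 and 320.

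The pulldown was set against its own input to ask which messages were enriched by streptavidin. Whether mitochondrial ribosomes carried biotin from the bait was not tested, and every culture here received biotin. The summed footprints of the 7 genes were higher in the pulldown in 19 of 19 same-numbered pairs, by 0.41 to 2.20 on the log2 scale, with a median of 1.08. mt-Nd1, mt-Nd2, mt-Nd4 and mt-Nd5 were also higher in 19 of 19 pairs, mt-Nd6 in 17, and mt-Nd3 and mt-Nd4l in 12 each. These differences are of log2(CPM + 1) and carry no test. Each comparison was tested with the quasi-likelihood F test of edgeR across all genes, a log2 fold change is given with its SE, and a gene was called at a Benjamini-Hochberg adjusted p (FDR) under 0.05.

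In resting neurons with TurboID-PSD95, 2 of 7 members rose in the pulldown and none fell, where 25% of 13019 genes tested were called in either direction. mt-Nd5, the largest of the pump subunits, was at 93.4, 215 and 146 CPM in inputs 1 to 3 and at 255.9, 539 and 416 CPM in the pulldowns. Its 3 pulldowns lay above all 3 inputs, with a log2 fold change of 1.45 ± 0.44 (edgeR FDR = 0.022). mt-Nd4, another pump subunit, was at 71.9, 182 and 108 CPM in the inputs and 219, 427 and 277 CPM in the pulldowns. These also did not overlap, and its log2 fold change was 1.39 ± 0.49 (edgeR FDR = 0.044). mt-Nd1 was at 81.1, 188 and 147 CPM against 204, 374 and 320 CPM, and mt-Nd2 at 62.9, 128 and 100 CPM against 161, 272 and 194 CPM. Neither gene overlapped between fractions, and their log2 fold changes of 1.15 ± 0.49 and 1.15 ± 0.42 missed the threshold (edgeR FDR = 0.092 and 0.051). mt-Nd3, mt-Nd6 and mt-Nd4l overlapped between the fractions, with 0.57 ± 0.50, 0.45 ± 0.47 and 0.29 ± 0.50. The median of the 7 was 1.15, beside -0.05 over all genes tested. With replicate number as a block, which pairs each pulldown with its own input, only mt-Nd5 was called. Without any 1 of the 3 replicate numbers neither gene was called, and mt-Nd5 stayed between 1.42 and 1.57 and mt-Nd4 between 1.35 and 1.55.

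After depolarization, the TurboID-PSD95 pulldown gave 0 of 7 members called, with 12.6% of all genes called. At an unadjusted p under 0.05 there were 2, beside 4076 of 13019 genes, and edgeR's likelihood ratio test and DESeq2 each called 1. DESeq2 also called more of all genes than the quasi-likelihood test. mt-Nd4 was highest at 1.31 ± 0.49 (edgeR FDR = 0.080) and mt-Nd5 stood at 0.96 ± 0.43. mt-Nd5 was at 331, 171 and 255.7 CPM in the inputs and 496, 405 and 532 CPM in the pulldowns, which did not overlap. mt-Nd3 gave -0.41 ± 0.51, and its pulldown was below its input in all 3 pairs, at 23.3, 25.6 and 28.8 CPM against 47.7, 26.5 and 32.7 CPM. The KCl change of pulldown over input itself was below 0 for all 7 genes, from -0.09 ± 0.68 for mt-Nd4 to -0.97 ± 0.72 for mt-Nd3, and the SE was larger than the value for every gene except mt-Nd3. It called 0 of 7 members and 0% of all genes with edgeR's quasi-likelihood test. Over all genes 236 had an unadjusted p under 0.05, none of them a member, the likelihood ratio test called 1 gene, and no member was called by that test or by DESeq2.

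With Pan-TurboID the pulldown called 0 of 7 members at rest, where 9.56% of all genes were called, and 0 of 7 after KCl, where 8.83% were. No member had an unadjusted p under 0.05 in either condition, and the likelihood ratio test and DESeq2 called none. mt-Nd4 was again highest, at 0.99 ± 0.49 at rest and 0.99 ± 0.48 after KCl (edgeR FDR = 0.18 in both). mt-Nd5 followed at 0.78 ± 0.43 and 0.73 ± 0.43. The KCl change of this ratio called 0 of 7 members and 0% of all genes, with 125 genes and no member at an unadjusted p under 0.05, and no gene called by the likelihood ratio test or DESeq2. The largest such change of a member was -0.30 ± 0.69, for mt-Nd1.

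The difference between baits, TurboID-PSD95 minus Pan-TurboID in pulldown over input, averaged over rest and KCl, asks whether the dendritic bait enriched these messages more. It called 0 of 7 members, where 0.00768% of all genes, 1 gene, was called. No member had an unadjusted p under 0.05, and neither other tool called one. Over all 13019 genes 169 had an unadjusted p under 0.05. With so few, this comparison of group means had little ability to call any gene, and 0 of 7 does not show equal enrichment by both baits. The same limit holds for the KCl changes of the ratio above. The differences ran from -0.08 ± 0.50 for mt-Nd3 to 0.45 ± 0.43 for mt-Nd5. 

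In DHPG-treated neurons 6 of 7 members rose in the pulldown, in a comparison that called 79.8% of 12273 genes, so that a call by itself was the usual outcome. mt-Nd5 was at 647, 615 and 679 CPM in the inputs and 1727, 1587 and 1051 CPM in the pulldowns. mt-Nd4 was at 387, 387 and 393 CPM against 1165, 1140 and 731 CPM. Neither overlapped, and the log2 fold changes were 1.38 ± 0.17 (edgeR FDR = 8.4e-05) and 1.59 ± 0.17 (FDR = 3.0e-05), beside a median of 0.05 over all genes. mt-Nd2, mt-Nd1, mt-Nd6 and mt-Nd4l rose by 1.26 ± 0.19, 1.22 ± 0.13, 0.89 ± 0.16 and 0.41 ± 0.10. mt-Nd4l overlapped between the fractions, at 70.9 to 92.8 against 81.2 to 103 CPM, and was higher in 2 of 3 pairs. mt-Nd3 was at 103, 82.4 and 90.8 CPM against 114, 116 and 72.3 CPM, which overlapped, and its 0.33 ± 0.16 missed the threshold (edgeR FDR = 0.085). With the replicate block mt-Nd3 passed as well (0.31, edgeR FDR = 0.014), and scaled to CDS totals without TMM mt-Nd4l did not pass.

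In resting knockdown neurons all 7 members rose in the pulldown, where 45.5% of 12239 genes were called, and the median was 2.17 beside -0.01 over all genes. mt-Nd5 was at 206 and 179 CPM in the inputs and 913 and 893 CPM in the pulldowns. mt-Nd1 was at 149 and 136 CPM against 582 and 602 CPM. The largest log2 fold changes were 2.56 ± 0.11 for mt-Nd4, 2.48 ± 0.19 for mt-Nd2, 2.34 ± 0.10 for mt-Nd5 and 2.17 ± 0.10 for mt-Nd1, and the smallest were 1.46 ± 0.22 for mt-Nd6, 1.03 ± 0.21 for mt-Nd3 and 0.87 ± 0.21 for mt-Nd4l. In depolarized knockdown neurons 5 of 7 rose, with 48.8% of all genes called, led by mt-Nd2 at 2.11 ± 0.19 and mt-Nd5 at 2.08 ± 0.09. mt-Nd3 and mt-Nd4l did not pass there, at 0.27 ± 0.20 (edgeR FDR = 0.27) and 0.18 ± 0.21 (FDR = 0.50). Without resting knockdown pulldown 1, mt-Nd3 and mt-Nd4l stood at 0.55 and 0.51 at rest. That fit leaves 1 library in the group and takes its spread from the other groups, so its calls are not given. Whether these enrichments differ from those without knockdown was not tested. Neuronal markers summed to less in pulldowns than in inputs without overlap, at 7280 to 8147 against 9766 to 10787 CPM in resting TurboID-PSD95, 8330 to 8493 against 12305 to 12538 in DHPG, and 7555 to 7744 against 10935 to 11183 in resting knockdown neurons. Oligodendrocyte markers were also lower in pulldowns, at 22.7 to 30.4 against 45.0 to 48.8 CPM in DHPG and 112 to 134 against 184 to 193 CPM in resting knockdown neurons. Sums of microglial markers were higher, at 23.4 to 27.1 against 15.7 to 16.9 CPM and 73.8 to 91.8 against 61.4 to 65.2 CPM. The single microglial marker Aif1, at low levels, went the other way. It was at 1.31 to 1.74 against 1.82 to 2.79 CPM in DHPG and at 0 against 0.25 and 0.31 CPM in resting knockdown neurons. Sums of astrocyte markers were higher in DHPG pulldowns, at 259 to 274 against 242 to 258 CPM, and in depolarized TurboID-PSD95 pulldowns, at 914 to 1013 against 742 to 828 CPM. They were lower in resting knockdown pulldowns, at 582 to 717 against 720 to 740 CPM. The single astrocyte marker Gfap went the other way in depolarized TurboID-PSD95. It was at 5.11, 14.4 and 25.4 CPM in inputs and 1.94, 9.14 and 10.3 CPM in pulldowns. Neuronal markers were lower also in depolarized TurboID-PSD95, at 5869 to 7516 against 8374 to 9015 CPM, and in resting Pan-TurboID, at 8997 to 9680 against 10029 to 10290 CPM. In depolarized knockdown neurons the sums of neuronal, oligodendrocyte and microglial markers separated in the same directions as at rest. Single neuronal markers did not all follow. Rbfox3 was at 15.3 and 9.15 CPM in inputs and 17.9 and 16.4 CPM in pulldowns, while Map2 was at 3505 and 3365 against 1325 and 1480 CPM. The part of these markers in the results was not tested.

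**Figure D3:**
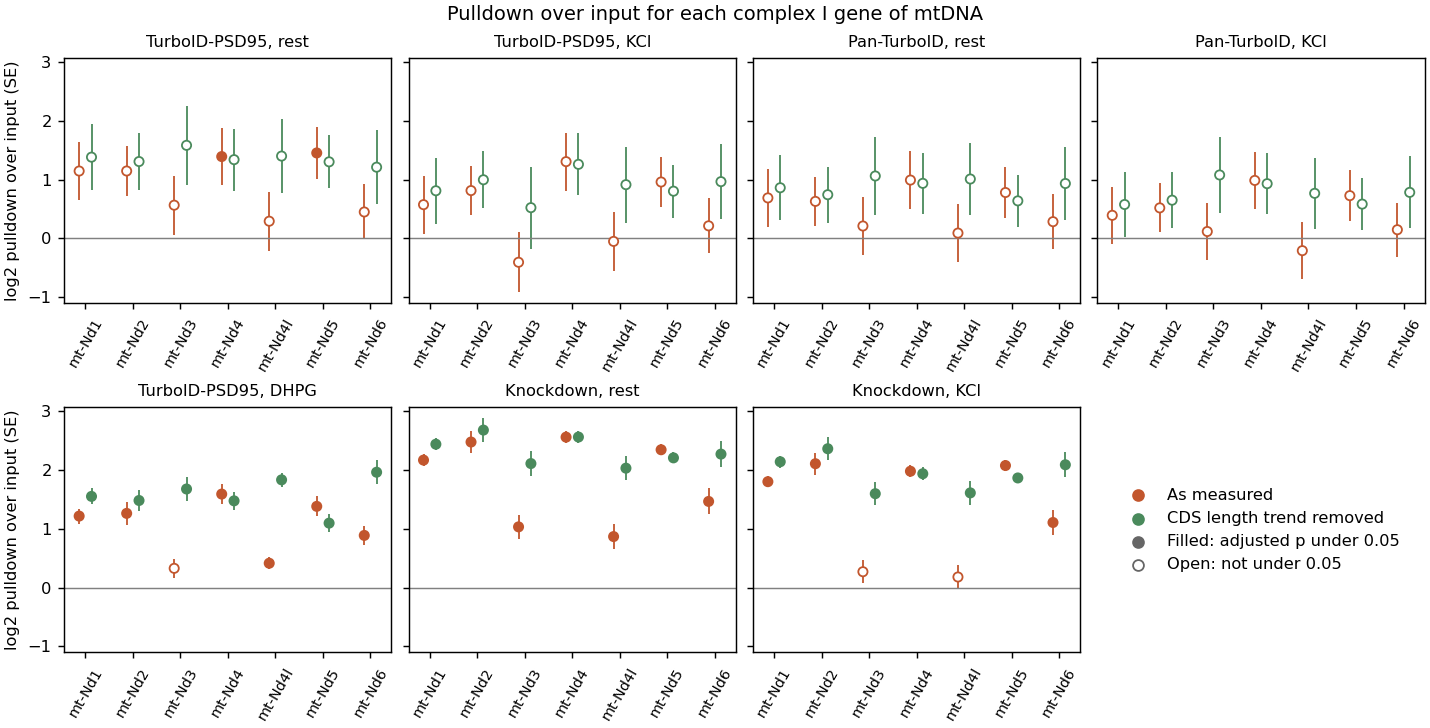
Log2 pulldown over input with its SE for each gene in the 7 conditions, as measured (orange) and after removal of the length trend (green). Filled points passed an edgeR FDR of 0.05, open points did not, and the green values of the 3 short genes lie nearer to those of the 4 long ones than the orange ones in resting TurboID-PSD95 and above all 4 in DHPG, at 1.68 to 1.96 against 1.10 to 1.55.

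The size of the enrichment followed the length of the coding sequence. Across the 13 mitochondrially encoded genes, Pearson's r between log2 fold change and log2 CDS length was 0.87 to 0.95 in the 7 conditions, and across the 7 members 0.92 to 0.97. These are descriptions across genes, which share libraries and are not independent replicates. mt-Nd1, mt-Nd2, mt-Nd4 and mt-Nd5, of 957 to 1824 bases, averaged 1.29 in resting TurboID-PSD95 and 2.39 in resting knockdown neurons. mt-Nd3, mt-Nd4l and mt-Nd6, of 297 to 519 bases, averaged 0.44 and 1.12 in the same comparisons. Footprints over all genes had a trend with length as well, which an alternative removed from each library. The 7 members then ran from 1.21 ± 0.63 for mt-Nd6 to 1.58 ± 0.68 for mt-Nd3 in resting TurboID-PSD95, where none was called and 14.1% of all genes were. In DHPG all 7 were called, between 1.10 ± 0.15 for mt-Nd5 and 1.96 ± 0.20 for mt-Nd6, with 67.4% of all genes called and the 3 short genes above the 4 long ones. In knockdown neurons all 7 were called both at rest and after KCl, with 32.9% and 35.1% of all genes.

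**Figure D4:**
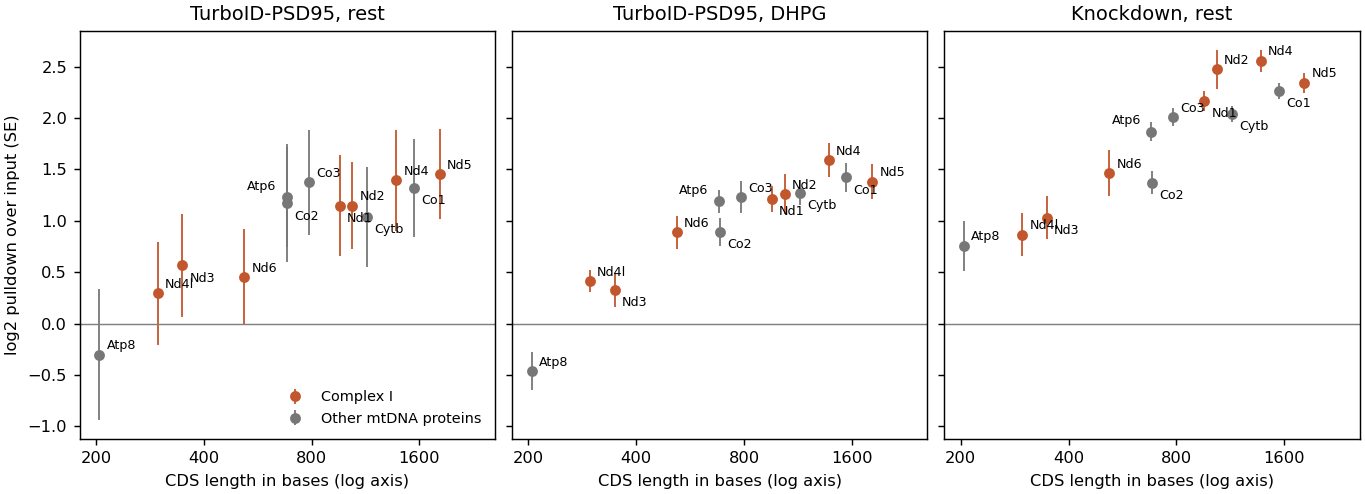
Log2 pulldown over input with its SE against CDS length on a log axis, for the 7 complex I genes (orange) and the 6 other proteins of mitochondrial DNA (grey) in 3 conditions. Short genes such as mt-Atp8, mt-Nd4l and mt-Nd3 lie at the bottom and mt-Nd4, mt-Co1 and mt-Nd5 near the top, with r between 0.90 and 0.94 over the 13 genes.

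The 6 other mitochondrially encoded proteins, subunits of cytochrome c oxidase, complex III and ATP synthase, had a median of 1.20 in resting TurboID-PSD95 pulldowns, and 1 of them was called, mt-Co1, the catalytic subunit of cytochrome c oxidase, at 1.32 ± 0.48 (edgeR FDR = 0.048). In DHPG 5 of the 6 rose and 1 fell, mt-Atp8, the shortest at 204 bases, while with the length trend removed all 6 rose. mt-Atp8 was higher in the pulldown in 3 of 19 pairs, with a median of -0.52. The mitochondrial ribosomal RNAs mt-Rnr1 and mt-Rnr2, read from segments outside coding sequence, were higher in the pulldown in 19 of 19 pairs each, by medians of 2.17 and 1.55. Those counts come after depletion and filtering of ribosomal RNA, and mt-Rnr1 ranged from 317 to 105034 CPM on the scale of CDS counts.

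Complex I needs 36 further subunits of the lists used here that nuclear genes encode, 7 of them core and 29 accessory. In resting TurboID-PSD95 pulldowns, 22 of 29 accessory subunits fell and 1 rose, with a median of -1.01, where 13.5% of all genes fell and 11.5% rose. Ndufa12 fell by 1.28 ± 0.24 (edgeR FDR = 0.0031) and Ndufa2 by 1.37 ± 0.29 (FDR = 0.0042), while Ndufa9 rose by 0.55 ± 0.17 (FDR = 0.019). Of the 7 nuclear-encoded core subunits 3 fell and 1 rose. Ndufv2, an iron-sulfur subunit, fell by 1.08 ± 0.23, and Ndufv1, which binds NADH and flavin, rose by 0.61 ± 0.19. In depolarized TurboID-PSD95, resting Pan-TurboID and depolarized Pan-TurboID, 11, 12 and 10 of 29 accessory subunits fell and none rose, where 4.39%, 5.04% and 3.64% of all genes fell. In DHPG 27 fell and 2 rose, where 39.3% of all genes fell. In resting and depolarized knockdown neurons 25 and 26 fell and 2 rose in each, where 23.4% and 24.8% of all genes fell. The core subunits were mixed in these 3 conditions, with 3, 2 and 2 of 7 higher and 3, 4 and 3 lower, and Ndufv1 was higher in DHPG by 1.10 ± 0.07. The accessory genes are short, with a median CDS of 390 bases beside 792 for the nuclear-encoded core subunits and 957 for the 7 members. For all genes with a mean of at least 16 CPM it was 1527. With the length trend removed, 1 of 29 accessory subunits fell and 1 rose in resting TurboID-PSD95, with a median of -0.14. There 14.1% of all genes were called in either direction. None fell or rose in depolarized TurboID-PSD95 or in either Pan-TurboID condition, where 2.56% to 5.37% of all genes were called. In resting and depolarized knockdown neurons 7 and 11 fell and 2 and 3 rose, where 32.9% and 35.1% of all genes were called. In DHPG 20 fell and 3 rose, with a median of -0.37, where 67.4% of all genes were called. This alternative for the lists was chosen after seeing the data.

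Among other genes of the pathway the calls in resting TurboID-PSD95 pulldowns are to be read against the 25% of all genes called there. Of 18 complex I assembly factors, 3 fell and none rose, among them Dmac1 at -1.98 ± 0.42 (edgeR FDR = 0.0041). Of 22 tested factors of mitochondrial RNA, 2 rose and 1 fell. Lrpprc, which stabilizes mitochondrial messages, rose by 0.81 ± 0.29 (edgeR FDR = 0.040), and its small partner Slirp fell by 1.36 ± 0.31 (FDR = 0.0053). Of 14 mitochondrial translation factors, 3 rose and 1 fell. The elongation factor Gfm1 and the membrane insertase Oxa1l rose by 0.82 ± 0.23 and 0.77 ± 0.22, and the elongation factor Tsfm fell by 1.30 ± 0.30. In DHPG 14 of 22 RNA factors rose and 5 fell, and 8 of 14 translation factors rose and 3 fell, where 79.8% of all genes were called, with Lrpprc at 1.09 ± 0.07 and Gfm1 at 1.16 ± 0.08. Coding sequences ran from 138 to 1878 bases in assembly factors, 339 to 4179 in RNA factors and 582 to 2256 in translation factors. The values of these lists were not repeated with the length trend removed.

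Depolarization was set against rest within each bait and fraction to ask whether activity changed the share of footprints on these messages. Levels are relative to all CDS footprints, and the paper reports fewer ribosomes on coding sequences after depolarization. No RNA level was set beside them. Changes in RNA, in translation and in the remaining footprints therefore cannot be told apart here. In TurboID-PSD95 inputs 0 of 7 members were called, where 4.29% of all genes were. No member had an unadjusted p under 0.05, and no tool called any. Values ran from -0.01 ± 0.50 for mt-Nd4l to 0.76 ± 0.47 for mt-Nd6. The replicates went apart, since the summed level after KCl was higher by 1.54 on the log2 scale in replicate 1 and by 0.31 in replicate 3, and lower at -0.67 in replicate 2. In TurboID-PSD95 pulldowns 0 of 7 were called, where 6.59% of all genes were, again with no member at an unadjusted p under 0.05 and none called by another tool. The summed differences there were 0.63, -0.68 and 0.17 for replicates 1 to 3, and single genes ran from -0.63 ± 0.51 for mt-Nd3 to 0.52 ± 0.47 for mt-Nd6.

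In Pan-TurboID inputs 2 of 7 members rose with KCl and none fell, where 4.07% of all genes were called, and the median was 1.33 beside 0.00 over all genes. mt-Nd4l rose by 1.84 ± 0.50 (edgeR FDR = 0.042), from 28.7, 37.2 and 28.1 CPM at rest to 106, 181 and 35.1 CPM after KCl. mt-Nd6 rose by 1.71 ± 0.47 (edgeR FDR = 0.044), from 22.0, 37.8 and 27.8 CPM to 141, 96.3 and 36.5 CPM. Replicate 3 after KCl lay within the resting range for both genes, so the groups overlapped. mt-Nd5 was at 156, 316 and 221 CPM at rest and 702, 731 and 237 CPM after KCl, and its 1.33 ± 0.44 missed the threshold (edgeR FDR = 0.096). The summed difference was 2.02 and 1.22 in replicates 1 and 2 and -0.13 in replicate 3. No member was called without replicate 1, 2 or 3, without the low-count filter, or with the length trend described above removed.

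In Pan-TurboID pulldowns 0 of 7 members were called, where 5.03% of all genes were. At an unadjusted p under 0.05 there were 6, beside 2419 of 13019 genes, and the likelihood ratio test and DESeq2 each called 3. Over all genes DESeq2 called 1049. mt-Nd6 and mt-Nd4l came closest, at 1.57 ± 0.47 (edgeR FDR = 0.053) and 1.54 ± 0.50 (FDR = 0.079). With replicate number as a block, 2 members passed, mt-Nd4l at 1.52 (edgeR FDR = 0.030) and mt-Nd6 at 1.501 (FDR = 0.036). The summed difference was 1.70, 1.00 and 0.31 for replicates 1 to 3.

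In knockdown neurons all 7 members rose with KCl in both fractions, where 19.3% of all genes were called in inputs and 22.2% in pulldowns. mt-Nd5 was at 206 and 179 CPM in resting inputs and 505 and 494 CPM after KCl, and mt-Nd1 at 149 and 136 CPM against 379 and 361 CPM. In inputs the log2 fold changes lay between 1.32 ± 0.19 for mt-Nd2 and 1.78 ± 0.20 for mt-Nd3, with a median of 1.39 beside 0.02 over all genes. In pulldowns they lay between 0.71 ± 0.21 for mt-Nd4l (edgeR FDR = 0.016) and 1.38 ± 0.21 for mt-Nd6, with a median of 1.02. mt-Nd1 in the pulldowns was at 582 and 602 CPM at rest and 1069 and 1337 CPM after KCl. Over all 16 same-numbered comparisons of KCl and rest, the summed level was higher after KCl in 13, mt-Nd6 in 15, mt-Nd4 and mt-Nd5 in 14, mt-Nd2 in 13, mt-Nd4l in 12, and mt-Nd1 and mt-Nd3 in 10. These 16 are not independent, since an input and its pulldown come from 1 lysate by the study's methods. Same-numbered knockdown samples correlated at only -0.01 to 0.06 in their deviations from group means. In the pulldowns mt-Nd2 stood at 0.85 without resting pulldown 1, and mt-Nd4l at 0.48 and 0.39 without resting or depolarized pulldown 2. Such fits leave 1 library in a group, so their calls are not given. With the length trend removed mt-Nd4l was not called in the pulldowns. Sums of cell type markers moved without overlap in the same libraries. Astrocyte markers summed to 720 to 740 CPM at rest and 918 to 966 CPM after KCl in inputs, and to 582 to 717 and 829 to 1031 CPM in pulldowns. Neuronal markers went from 10935 to 11183 CPM at rest to 8710 to 8882 CPM in inputs, and from 7555 to 7744 to 5593 to 5637 CPM in pulldowns. Microglial markers went from 61.4 to 65.2 CPM at rest to 67.1 to 68.4 CPM in inputs, and oligodendrocyte markers from 112 to 134 to 86.4 to 106 CPM in pulldowns. Single markers did not all follow these sums. In inputs the neuronal marker Map2 was at 2989 and 3067 CPM at rest and 3505 and 3365 CPM after KCl, while Rbfox3 fell. In pulldowns the astrocyte marker Gfap was at 9.27 and 14.5 CPM at rest and 4.96 and 4.23 CPM after KCl. The part of these markers in the result was not tested, nor was whether the response to KCl differs with knockdown.

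**Figure D5:**
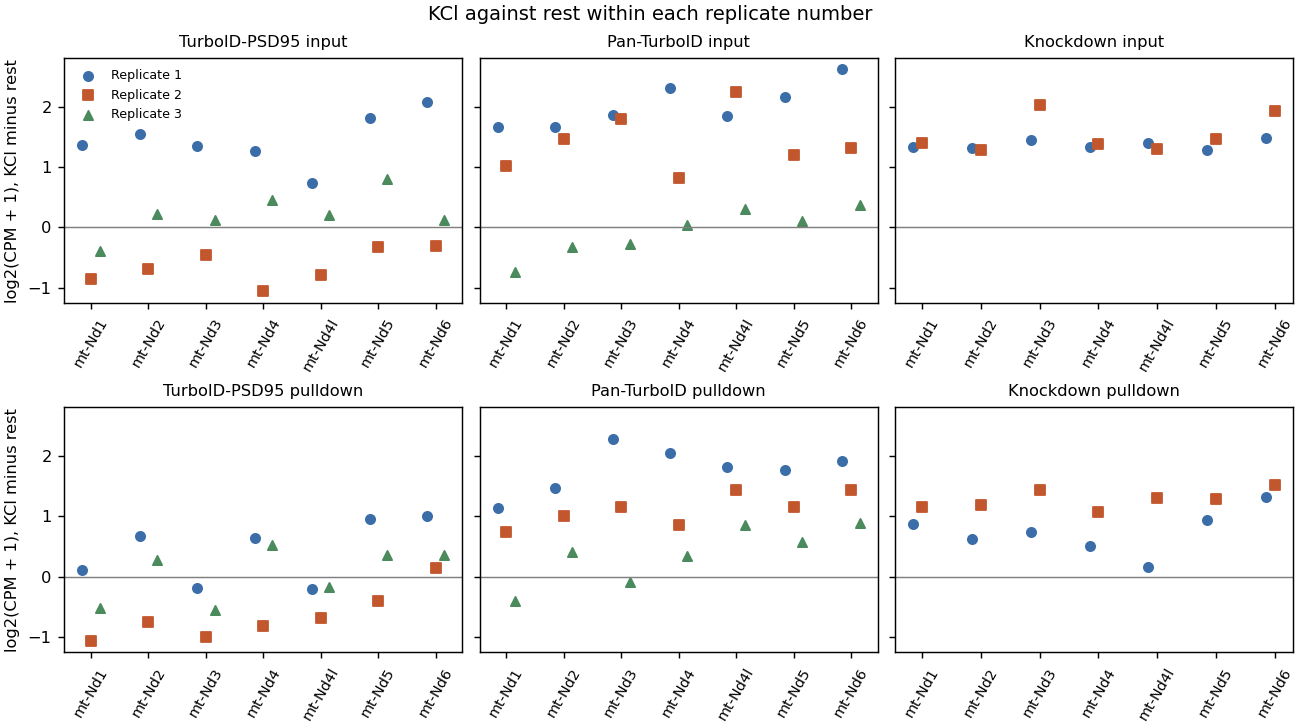
Difference in log2(CPM + 1) between KCl and rest for each gene, 1 point per replicate number, by bait or knockdown and fraction. Replicates 1 and 2 of Pan-TurboID and both knockdown replicates lie above 0 for all genes, and in TurboID-PSD95 inputs the summed difference ran from -0.67 to 1.54.

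Of the nuclear-encoded accessory subunits, 14 of 29 rose with KCl and none fell in TurboID-PSD95 pulldowns, where 3.31% of all genes rose, with a median of 0.88, among them Ndufa5 at 0.97 ± 0.22 (edgeR FDR = 0.0075). In the same libraries the median of the 7 mitochondrially encoded members was 0.07. In TurboID-PSD95 inputs 3 of 29 rose, where 1.3% of all genes did, led by Ndufa9 at 0.92 ± 0.17 (edgeR FDR = 0.0011), and in Pan-TurboID inputs and pulldowns 1 and 2 did, where 1.24% and 1.87% of all genes rose. Neuronal markers in TurboID-PSD95 inputs summed to 8374 to 9015 CPM after KCl and 9766 to 10787 CPM at rest. Their part in the KCl results was not tested. In knockdown inputs 19 of 29 rose, Ndufa2 by 1.04 ± 0.15 (edgeR FDR = 1.1e-05), where 8.96% of all genes rose, and in knockdown pulldowns 6 did, where 10.2% rose. These KCl counts of short genes were not repeated with the length trend removed.

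DHPG was compared with the resting TurboID-PSD95 libraries of the KCl experiment, so that agonist and experiment cannot be told apart. All 7 members were higher in DHPG inputs, where 32.8% of 12803 genes were called, and in DHPG pulldowns, where 47.7% were. mt-Nd5 was at 647, 615 and 679 CPM in DHPG inputs against 93.4, 215 and 146 CPM at rest, with a log2 fold change of 2.20 ± 0.37 (edgeR FDR = 0.0015). The other members lay between 1.42 ± 0.32 for mt-Nd1 and 1.92 ± 0.30 for mt-Nd2. In pulldowns the range was 1.43 ± 0.32 for mt-Nd1 to 2.07 ± 0.36 for mt-Nd5, with a median of 1.94 beside -0.09 over all genes. Of the accessory subunits, 3 of 29 rose and 5 fell in inputs, and 2 rose and 20 fell in pulldowns, where 16.5% and 26% of all genes fell. These counts of short genes were not repeated with the length trend removed. Cell type markers moved with this comparison. Astrocyte markers summed to 242 to 274 CPM in DHPG libraries and 678 to 1557 CPM at rest, with 7 of 8 tested lower in inputs and 8 of 8 in pulldowns. Oligodendrocyte markers summed to 22.7 to 48.8 CPM against 135 to 609 CPM, with 5 of 7 lower in each fraction. Neuronal markers summed to 12305 to 12538 CPM against 9766 to 10787 CPM in inputs and to 8330 to 8493 against 7280 to 8147 CPM in pulldowns, with 5 of 10 higher and none lower in inputs, and 2 higher and 6 lower in pulldowns. Fewer cells of a type and less RNA per cell cannot be told apart, and the part of these markers in the result was not tested.

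For the knockdown, Eif4g2 itself was at 284 and 284 CPM in resting and 337 and 323 CPM in depolarized knockdown inputs, below the 456 to 811 CPM of all inputs of the KCl experiment. The reference libraries without knockdown are the TurboID-PSD95 libraries of that experiment, so knockdown and experiment cannot be told apart, and libraries with a control siRNA were not analysed here. In resting inputs 0 of 7 members were called, where 3.9% of all genes were, with no unadjusted p under 0.05 and none called by another tool. The values ran from -0.29 ± 0.40 for mt-Nd6 to 0.36 ± 0.33 for mt-Nd5. In depolarized inputs 4 of 7 were higher with knockdown, where 5.32% of all genes were called, mt-Nd3 by 1.52 ± 0.33, mt-Nd1 by 1.41 ± 0.33, mt-Nd4 by 1.38 ± 0.36 and mt-Nd4l by 1.34 ± 0.35 (edgeR FDR between 0.0071 and 0.030). Without depolarized TurboID-PSD95 input 2 or 3 only 1 of the 7 was called, and without input 1 of that group all 7 were. Without depolarized knockdown input 1 or 2 that group keeps 1 library. The spread then comes from the other groups, so calls of those fits are not given.

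In resting pulldowns 3 of 7 members were higher with knockdown, where 9.15% of all genes were called. mt-Nd2 was higher by 1.47 ± 0.34, mt-Nd4 by 1.29 ± 0.36 and mt-Nd5 by 1.20 ± 0.32 (edgeR FDR between 0.0097 and 0.028). mt-Nd5 was at 913 and 893 CPM with knockdown and 255.9, 539 and 416 CPM without. Without resting TurboID-PSD95 pulldown 1 or 3, 1 of the 7 was called. Without resting knockdown pulldown 1 or 2 that group keeps 1 library, so calls of those fits are not given. In depolarized pulldowns all 7 were higher, where 18.9% of all genes were called, from 1.55 ± 0.39 for mt-Nd6 to 2.61 ± 0.33 for mt-Nd1, with a median of 2.10 beside -0.10. mt-Nd6 was not called without TurboID-PSD95 pulldown 2 (1.54, edgeR FDR = 0.053). Without knockdown pulldown 1 mt-Nd6 stood at 1.31, and without knockdown pulldown 2 mt-Nd4l stood at 1.22, with 1 library left in the group. mt-Nd1 was at 1069 and 1337 CPM with knockdown and 219, 177 and 222 CPM without. In the same comparison 24 of 29 nuclear-encoded accessory subunits fell and none rose, where 11% of all genes fell, with a median of -1.10. This count of short genes was not repeated with the length trend removed. Microglial markers summed to 61.4 to 109 CPM in knockdown libraries and 12.4 to 47.5 CPM in TurboID-PSD95 libraries of the KCl experiment. The single marker Aif1 was lower with knockdown in resting inputs, at 0.25 and 0.31 against 0.78 to 2.30 CPM. In depolarized pulldowns it was higher, at 1.91 and 4.23 against 0 to 1.52 CPM. In depolarized inputs astrocyte markers summed to 918 to 966 CPM with knockdown against 742 to 828 CPM. In resting pulldowns oligodendrocyte markers summed to 112 to 134 CPM with knockdown against 135 to 505 CPM, and astrocyte markers to 582 to 717 against 722 to 1557 CPM. In depolarized pulldowns oligodendrocyte markers summed to 86.4 to 106 against 115 to 215 CPM, and neuronal markers to 5593 to 5637 against 5869 to 7516 CPM. The part of these markers in the results was not tested.

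The genes whose levels followed those of the 7 most closely over all 38 libraries were other messages of mitochondrial DNA. By Pearson's r of log2(CPM + 1) with the summed members, among 7930 genes, mt-Cytb ranked at the top (r = 0.99), before mt-Co1 and mt-Atp6 (0.98 each), mt-Co3 (0.98) and mt-Co2 (0.94). mt-Atp8 ranked 1036 (r = 0.53). Among the closest genes from outside mitochondrial DNA were Lss at 0.88, Kdm5b at 0.87, Kdm4a at 0.86 and Scd2 at 0.85. The libraries share experiments and depth, and these values describe these 38 libraries.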

How the data were processed

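PL-Ribo-seq footprints were measured in 38 libraries. The authors trimmed and demultiplexed the reads (Rfastp, fastq-multx), cut off the molecular identifiers, aligned to mm10 with Rsubread and counted 5′ ends per segment of the UCSC known genes with plastid; the deposited counts are raw and replicates were not pooled. Per the file headers, alignments were named noRibo and rmDup. The plastid version, use of strand and treatment of multiple matches are not given in the sources used here.

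CDS counts of the longest transcript (CDS plus untranslated regions, with CDS length breaking ties) were kept for each of 22401 genes. Of 67238 transcripts 66664 matched (99.1%) and 574 did not. Libraries held 2048604 to 14646402 such counts. Coordinates and sequences came from GRCm38. Groups came from the labels. Each experiment was fitted on its own, and DHPG and knockdown also with the TurboID-PSD95 libraries they were compared with (12 and 20 libraries), by the quasi-likelihood F test of edgeR 4.0.16 (robust, TMM scaling, filterByExpr, Benjamini-Hochberg FDR of 0.05) in R 4.3.3, tested on simulated data. In all 22 comparisons were made. Alternatives were other scalings, no filter, the likelihood ratio test, DESeq2 1.42.0, another transcript, the length trend removed (lowess of span 0.3), a replicate block and each replicate left out. Levels are plain CPM of CDS counts and differences within a number use log2(CPM + 1).

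Replicate numbers pair samples in the KCl experiment, where the file headers show 1 processing run per number. By the study's methods an input and its pulldown come from 1 lysate, taken here as that of the same number. Deviations from group means of same-numbered samples correlated at -0.29 to 0.71 (median 0.15, 84 pairs) there, at -0.20 to 0.06 in DHPG and at -0.01 to 0.06 in knockdown. DHPG and knockdown libraries came from 1 further run.

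The members, lists and tests were chosen with earlier results of these data known. Named were the 7 members, the 6 other mitochondrially encoded proteins, the 5 nuclear genes of highest correlation with the summed members (mean CPM of at least 16; 1 of them is not reported here), and, from each list, genes among the 2 of smallest p per direction.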

Additional observations from a re-analysis of the deposited data

Results flagged for a closer look

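In depolarized TurboID-PSD95 neurons mt-Nd3 was lower in the pulldown than in the input in all 3 pairs, by log2 differences of -1.001 to -0.048, while it was higher in every pair of resting TurboID-PSD95 and of both knockdown conditions, by 0.036 to 1.01. The remaining conditions were mixed, with mt-Nd3 higher in 1 of 3 pairs of resting Pan-TurboID and in 2 of 3 of depolarized Pan-TurboID and of DHPG. With the length trend removed, the fitted value in depolarized TurboID-PSD95 turned from -0.41 to 0.52. The change with KCl within TurboID-PSD95 was tested and was -0.97 ± 0.72 (edgeR FDR = 1.0), and the difference from the knockdown conditions was not tested.

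With KCl, mt-Nd3 was lower in all 3 TurboID-PSD95 pulldowns, by -1.003 to -0.187, and higher in all knockdown inputs and pulldowns, by 0.733 to 2.03. This difference was not tested. TurboID-PSD95 inputs, Pan-TurboID inputs and Pan-TurboID pulldowns were mixed, with mt-Nd3 higher in 2 of 3 pairs in each.

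With KCl, mt-Nd4l was lower in all 3 TurboID-PSD95 pulldowns, by -0.684 to -0.167, and higher in every pair of Pan-TurboID and knockdown inputs and pulldowns, by 0.155 to 2.25. This difference was not tested. TurboID-PSD95 inputs were mixed, with mt-Nd4l higher in 2 of 3 pairs.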

How the results depend on the processing

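Over 154 results for single members, 2268 of 2422 alternatives kept the direction and the side of the threshold, 56 lost a call, 53 gained one and 45 changed sign, none of them called. The causes were not tested.

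Of the 7 members, resting TurboID-PSD95 pulldowns gave 1 call with no filter, 1 with the replicate block (mt-Nd5 1.46, edgeR FDR = 0.020; mt-Nd4 1.40, FDR = 0.050) and 0 with the length trend removed. Depolarized TurboID-PSD95 pulldowns gave 1 with the likelihood ratio test and 1 with DESeq2. KCl in Pan-TurboID inputs gave 0 with no filter, 5 with DESeq2 and 0 with the length trend removed. KCl in Pan-TurboID pulldowns gave 1 scaled to CDS totals, 1 to CDS totals without mitochondrial genes, 3 with the likelihood ratio test, 3 with DESeq2 and 2 with the replicate block. The block also made mt-Nd3 pass in DHPG pulldowns and changed no other call of a member.

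With the length trend removed, signs turned for mt-Nd3 (0.52) and mt-Nd4l (0.91) in depolarized TurboID-PSD95 pulldowns, mt-Nd4l (0.77) in depolarized Pan-TurboID pulldowns, mt-Nd3 with KCl in TurboID-PSD95 inputs (-0.026), mt-Nd3 in the KCl change of the Pan-TurboID ratio (0.017) and mt-Nd4l for knockdown in resting inputs (0.16). mt-Nd4l with KCl in TurboID-PSD95 inputs turned to 0.037 with RLE size factors, 0.040 with DESeq2, 0.031 with the transcript of highest count and 0.11 with the replicate block.

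With each replicate left out, called members numbered 0 to 0 in resting TurboID-PSD95 pulldowns and in KCl against rest in Pan-TurboID inputs. In DHPG pulldowns they numbered 5 to 7 (mt-Nd4l lost without replicate 2, 0.28, edgeR FDR = 0.077). Fits without a knockdown library leave 1 in its group, so only their effect sizes are given, and the knockdown calls rest on groups of 2. Log2 fold changes that crossed 0 ran, in depolarized TurboID-PSD95 pulldowns, from -0.34 to 0.30 for mt-Nd4l and -0.031 to 0.65 for mt-Nd6, in resting Pan-TurboID pulldowns from -0.083 to 0.35 for mt-Nd3 and -0.16 to 0.21 for mt-Nd4l, in depolarized Pan-TurboID pulldowns from -0.056 to 0.53 for mt-Nd6, and in depolarized knockdown pulldowns from -0.14 to 0.45 for mt-Nd4l. With KCl in TurboID-PSD95 inputs they ran from -0.68 to 0.61 for mt-Nd1, -0.26 to 1.00 for mt-Nd2, -0.21 to 0.85 for mt-Nd3, -0.34 to 0.95 for mt-Nd4, -0.40 to 0.59 for mt-Nd4l and -0.15 to 1.33 for mt-Nd6, and in TurboID-PSD95 pulldowns from -0.29 to 0.53 for mt-Nd2, -0.18 to 0.64 for mt-Nd4 and -0.071 to 0.67 for mt-Nd5. The KCl change of the ratio ran, for TurboID-PSD95, from -0.32 to 0.17 for mt-Nd4 and -0.53 to 0.32 for mt-Nd6, and for Pan-TurboID from -0.33 to 0.12 for mt-Nd2, -0.29 to 0.30 for mt-Nd3, -0.093 to 0.084 for mt-Nd4, -0.50 to 0.13 for mt-Nd4l, -0.15 to 0.069 for mt-Nd5 and -0.34 to 0.27 for mt-Nd6. The difference between baits ran from -0.22 to 0.052 for mt-Nd3 and -0.077 to 0.33 for mt-Nd4l. Knockdown in resting inputs ran from -0.23 to 0.36 for mt-Nd1, -0.052 to 0.47 for mt-Nd2, -0.20 to 0.33 for mt-Nd3, -0.10 to 0.63 for mt-Nd4, -0.30 to 0.34 for mt-Nd4l and -0.66 to 0.049 for mt-Nd6, and in resting pulldowns from -0.0039 to 0.78 for mt-Nd3.

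Over all genes, pulldown calls went from 3259 to 1842 with the length trend removed in resting TurboID-PSD95, from 1640 to 699 in depolarized TurboID-PSD95, from 1245 to 387 in resting Pan-TurboID and from 1150 to 333 in depolarized Pan-TurboID. With the block the last 3 came to 2921, 2419 and 2436, and with DESeq2 to 2636, 2137 and 2252. The likelihood ratio test gave 1908 and 1827 with Pan-TurboID at rest and after KCl. KCl calls went with DESeq2 from 558 to 930 in TurboID-PSD95 inputs, from 530 to 836 in Pan-TurboID inputs, from 858 to 1377 in TurboID-PSD95 pulldowns and from 655 to 1049 in Pan-TurboID pulldowns, and the block gave 926 in TurboID-PSD95 inputs and 984 in Pan-TurboID pulldowns. The difference between baits called 0 genes to 2. DESeq2 also raised knockdown calls from 515 to 908 in resting and from 702 to 1201 in depolarized inputs, and the likelihood ratio test to 783 and 1177. Without 1 replicate number, calls over all genes fell to as few as 0, 3, 0 and 0 in those 4 pulldown comparisons and to between 51 and 91 in the 4 KCl comparisons of the KCl experiment. Without 1 TurboID-PSD95 library, knockdown calls in resting inputs went from 515 to 218 and 270 (resting input 2 or 3) and up to 988. In depolarized inputs they went from 702 to 375 (without input 2 of that state) and up to 1250. In resting pulldowns they went from 1207 to 625 (without pulldown 2 of that state) and up to 1812. In depolarized pulldowns they went from 2498 to 1536 (without pulldown 2 of that state). The upper values came without depolarized TurboID-PSD95 pulldown 1 or 2. Calls in DHPG against resting inputs went from 4199 to 2553 and 2713 without replicate 2 or 3. Fits without a knockdown library leave 1 in its group, so their calls over all genes are not given. Depth was least for mt-Nd4l, with 41 counts in 1 library.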
